A study of Mus musculus with 8 samples.

Results

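The 44 collagen genes described here are all protein-coding genes of the table whose symbol has the form Col, a number, the letter a and a further number, out of 54532 genes in all. They were taken by symbol, without regard to their expression, and were divided into 11 fibrillar collagens, the 6 basement membrane collagens of type IV and 27 other collagens. The filter on low counts kept 32 of them for testing, which were 7 fibrillar, 6 basement membrane and 19 other collagens.

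The 8 bulk RNA-seq libraries come from prostate tissue of NOD mice, 1 per mouse, with and without etanercept. This drug is a soluble TNF receptor fusion protein that binds TNF. NOD is an inbred strain that develops autoimmune disease spontaneously, and all 8 were males of this strain killed at an age of 30 weeks. The 4 control mice, with the animal numbers 1, 3, 65 and 69, received PBS. The 4 treated mice, with the numbers 17, 19, 50 and 52, received etanercept at 4 mg/kg, with 2 doses per week for 5 weeks from an age of 25 weeks. The sample titles name the prostate, but how evenly the lobes or adjoining tissue were sampled cannot be told from them. In bulk RNA, fewer cells of a type cannot be told apart from less RNA per cell.

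Collagens are the main structural proteins of the extracellular matrix, and each molecule is a triple helix of chains that can come from the same gene or from different genes. Fibrillar collagens such as types I and III assemble into the fibres of the stroma, type IV forms the network of the basement membrane under epithelium and around muscle cells, and the other types decorate fibrils, form beaded filaments or anchor cells. In the prostate, the glands rest on a basement membrane and are surrounded by a fibromuscular stroma, which is the main source of fibrillar collagen.

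The total count was 25178942, 14088213, 13760669 and 18870437 in control 1, 3, 65 and 69 and 17739635, 19698140, 17437320 and 14246828 in etanercept 17, 19, 50 and 52. Collagen genes held 0.0430% of the counts in control 1 (95% Wilson interval 0.0422 to 0.0438%) and 0.156% in etanercept 50 (0.154 to 0.157%), the lowest and the highest of the 8 mice. These intervals cover counting error only. The luminal genes Pbsn and Hoxb13, which mark prostate epithelium, were present in every library, with Pbsn between 1094 and 9172 CPM and Hoxb13 between 324 and 851 CPM. CPM are counts scaled to a common effective library size, and Hoxb13 was chosen after its values were seen.

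Several libraries stood apart before any comparison of collagens. Sbp, which encodes the spermine-binding protein secreted by the ventral lobe and was chosen after its values were seen, held 0.157% of the counts in etanercept 17 (95% Wilson interval 0.155 to 0.158%) and 20.7% in control 69 (20.7 to 20.7%). Seminal vesicle genes were abundant in etanercept 17, where the 5 genes of the list summed to 87860.5 CPM, against 3566 CPM in control 69 and 602 CPM in etanercept 50, with no more than 25.1 CPM elsewhere. Control 1 had the lowest level of 18 of the 32 tested collagens, and etanercept 52 had the highest level of 17.

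Long genes were measured at relatively higher levels in the etanercept-treated libraries. The Spearman correlation across 15466 tested genes between exon length and a gene's deviation from its mean log2 level was -0.115, -0.0875, -0.159 and -0.0113 in control 1, 3, 65 and 69 and 0.0640, 0.146, 0.0652 and 0.154 in etanercept 17, 19, 50 and 52. This is a description across genes, which are not independent. Every etanercept-treated mouse had a positive value and every control mouse a negative one. The median exon length was 7242 nt for the tested collagens and 4180.5 nt for all tested genes. Class medians of fold changes, and some single results, are therefore also given below after this trend was removed from each library.

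No collagen gene passed the adjusted threshold. By the quasi-likelihood test of edgeR, with the adjustment of Benjamini and Hochberg and a limit of 0.05, 0 of the 32 tested collagens were called, beside 0% of the 15472 genes tested, and the adjusted p of the collagens lay between 0.739 and 0.997. DESeq2 called 0 of 38 collagens, beside 0.115% of its genes. With p at or below 0.05 before adjustment in edgeR, 2 collagens were higher with etanercept, beside 2.99% of all tested genes, and 1 was lower, beside 3.63%. These were the type IV chain Col4a6, the type VI chain Col6a4 and the transmembrane collagen Col17a1. DESeq2 gave 3 and 1 of 38 by that measure, beside 2.86% and 4.59% of its genes. Over all genes, edgeR had 463 higher and 561 lower before adjustment, and 285 higher and 837 lower where libraries were scaled by library size alone. In 0 of the 32 genes did the values of the groups separate completely, beside 2.41% of all tested genes with every etanercept-treated mouse above every control mouse and 2.53% with every one below.

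These counts depended on single mice. Without control 3, 7 of 32 collagens were higher with p at or below 0.05 before adjustment, beside 2.86% of all genes in that fit. Without etanercept 19, 4 of 33 were, beside 2.53%, and without etanercept 17, 3 of 32, beside 2.86%. Leaving out etanercept 50 gave 2 of 33, beside 2.41%, and leaving out etanercept 52 gave 0 of 33, beside 1.64%. The count was 1 without control 1, control 65 or control 69, beside 3.15%, 1.73% and 5.45% of all genes. The count of 1 lower gene became 0 without control 1, control 3, control 65, etanercept 19, etanercept 50 or etanercept 52, where 2.49 to 3.03% of all genes were lower. After removal of the length trend, 1 collagen was higher and 1 was lower, beside 2.17% and 3.44%.

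Most collagens had a positive fold change. The log2 fold change was above 0 for 23 of the 32 tested collagens, or 71.9%, against 49.04% of all tested genes, and its median was 0.45 against -0.01. By class, it was above 0 for 6 of 7 fibrillar collagens (median 0.59), all 6 basement membrane collagens (0.58) and 11 of 19 other collagens (0.18). After removal of the length trend, the medians were 0.45, 0.48 and 0.12, against -0.03 for all tested genes. The fold change was then above 0 for 22 of the 32 collagens, with 5 of 7 fibrillar, all 6 basement membrane and 11 of 19 other collagens. Leaving out single mice moved the fibrillar median between 0.22, without control 65, and 0.96, without control 3. It moved the basement membrane median between 0.36, without control 1, and 0.85, without control 3, and that of the other collagens between 0.00, without etanercept 52, and 0.48, without control 3. Genes that fail the filter are not in these medians, and no test was made over the classes.

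**Figure D1:**
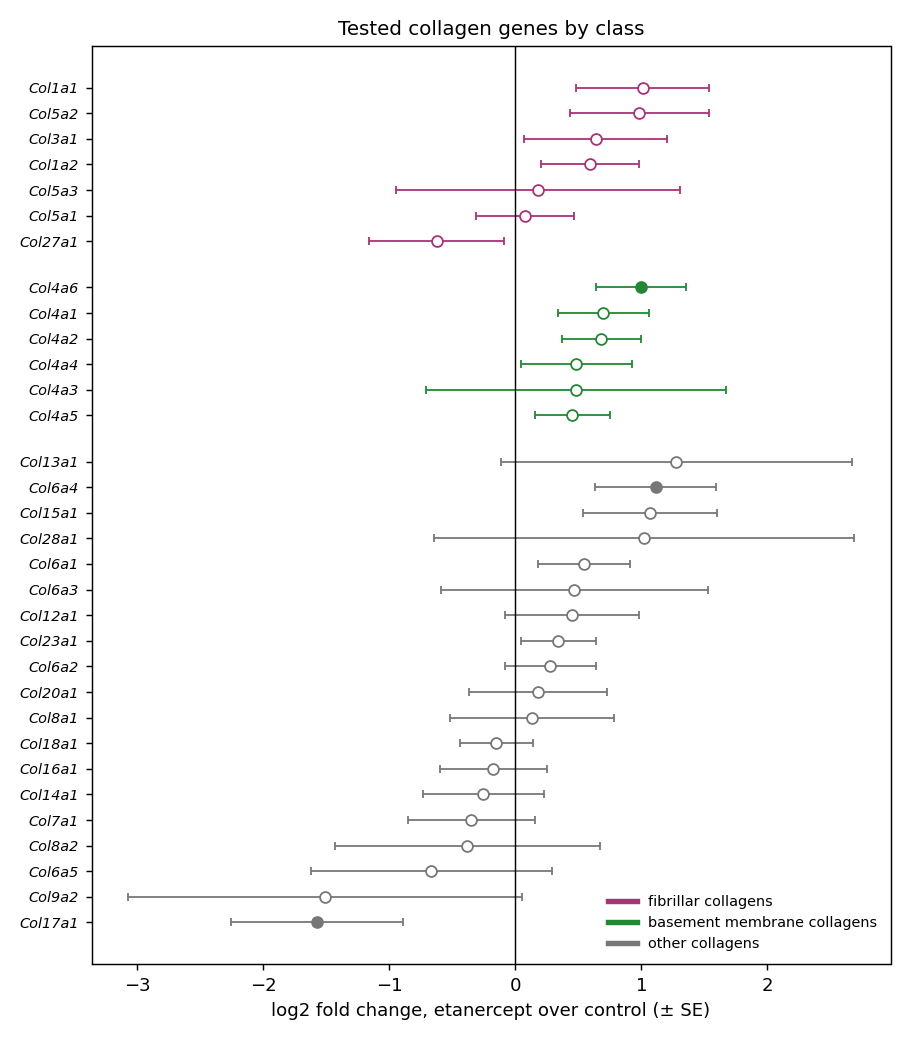
Log2 fold change of etanercept over control mice for the 32 collagen genes tested, from edgeR with 4 mice per group, with bars for the standard error. Colours mark the class and filled points the 3 genes with p at or below 0.05 before adjustment, Col4a6, Col6a4 and Col17a1. All 6 type IV chains lie to the right of 0, while the other collagens spread from -1.57 for Col17a1 to 1.28 for Col13a1, and the sign of Col5a1 depends on the scaling and that of Col18a1 on removal of the GC trend.

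The level of a class was summed as FPKM, counts scaled to library size and divided by exon length, so that genes can be compared. The fibrillar sum was 11.3, 34.9, 15.4 and 29.9 FPKM in control 1, 3, 65 and 69 and 19.5, 29.9, 40.5 and 58.4 FPKM in etanercept 17, 19, 50 and 52. Its lowest values were in control 1 and control 65 and its highest in etanercept 52 and etanercept 50, while the remaining mice of both groups lay in between. On average it was 22.9 ± 11.3 FPKM against 37.1 ± 16.6 FPKM (SD, n = 4), a log2 ratio of the means of 0.70. That ratio ran from 0.39 without etanercept 52 to 0.97 without control 3. A different summary, the average over the 7 tested members of log2(FPKM + 1), was higher by 0.36 with etanercept. The basement membrane sum was 11.6, 29.6, 23.1 and 26.5 FPKM in control 1, 3, 65 and 69 and 34.9, 24.1, 36.2 and 51.4 FPKM in etanercept 17, 19, 50 and 52. Control 1 was again lowest and etanercept 52 highest, and etanercept 19 lay below control 3 and control 69. Its means were 22.7 ± 7.85 FPKM against 36.6 ± 11.2 FPKM (SD, n = 4), a log2 ratio of 0.69. It lay between 0.47 without control 1 and 0.84 without etanercept 19, and the average of log2(FPKM + 1) over the 6 members was higher by 0.42.

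Summed over the other collagens, the level was 29.3, 95.3, 42.1 and 99.1 FPKM in control 1, 3, 65 and 69 and 41.9, 106, 104 and 83.9 FPKM in etanercept 17, 19, 50 and 52. Control 1, control 65 and etanercept 17 had the lowest sums and the other 5 mice the highest, so that the groups overlapped throughout. The means were 66.4 ± 35.9 FPKM against 83.9 ± 29.7 FPKM (SD, n = 4), a log2 ratio of 0.34. Leaving out mice gave 0.09 without control 1 to 0.59 without control 69. The average of log2(FPKM + 1) over the 19 tested members was higher by 0.08. The log2 ratio of the fibrillar to the basement membrane sum averaged -0.05 ± 0.38 in control and -0.05 ± 0.53 in treated mice (SD, n = 4). The difference was not tested, and each mean depends on a mouse far below the others. These were control 65 at -0.59 and etanercept 17 at -0.84. The remaining mice lay between -0.04 in control 1 and 0.31 in etanercept 19.

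**Figure D2:**
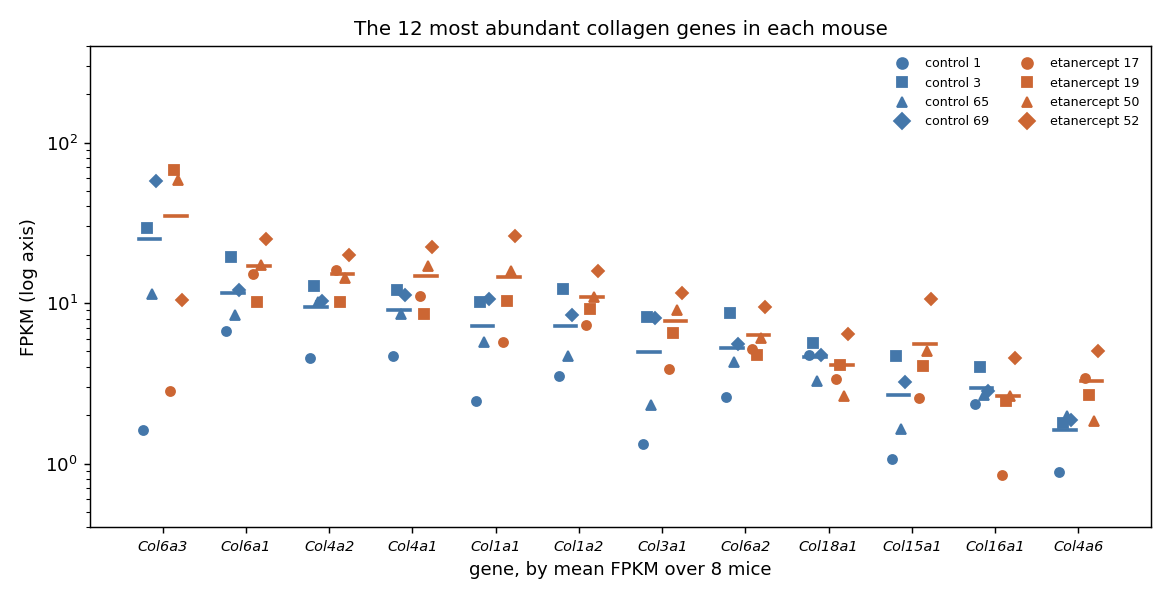
FPKM on a log axis for the 12 collagen genes with the highest mean over the 8 mice, with 1 point per mouse, control in blue and etanercept in orange, and bars for the group means. Control 1 is lowest for 10 of the 12 genes, the exceptions being Col18a1 and Col16a1, and the groups overlap for every gene shown.

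Type I and type III collagen, the main fibre-forming collagens, were the most abundant fibrillar collagens. Col1a1 (chr11:94936224-94953042, plus strand), which encodes the α1 chain of type I, was measured at 2.44, 10.2, 5.69 and 10.6 FPKM in control 1, 3, 65 and 69 and 5.71, 10.4, 15.8 and 26.3 FPKM in etanercept 17, 19, 50 and 52. Etanercept 50 and 52 were above every control mouse, etanercept 19 lay beside control 3 and control 69, and etanercept 17 beside control 65. The means of 7.23 ± 3.89 FPKM for control and 14.5 ± 8.84 FPKM for treated mice (SD, n = 4) differed by less than the SD of the treated mice (log2 fold change 1.01, SE 0.53, adjusted p = 0.782 in edgeR). Leaving out single mice moved this fold change between 0.54 and 1.28. Col1a2 (chr6:4504814-4541544, plus strand), the α2 chain, had 3.53, 12.2, 4.68 and 8.38 FPKM in control 1, 3, 65 and 69 and 7.34, 9.22, 10.9 and 15.9 FPKM in etanercept 17, 19, 50 and 52. Here control 3 was higher than 3 of the 4 etanercept-treated mice, and control 1 was lowest (log2 fold change 0.59, SE 0.39, adjusted p = 0.832 in edgeR).

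Col3a1 (chr1:45311538-45349706, plus strand), the single chain of type III, was measured at 1.32, 8.13, 2.31 and 8.11 FPKM in control 1, 3, 65 and 69 and 3.86, 6.54, 8.996 and 11.5 FPKM in etanercept 17, 19, 50 and 52. Control 1 and control 65 were low, control 3 and control 69 lay between etanercept 19 and etanercept 50, and the groups overlapped (log2 fold change 0.64, SE 0.57, adjusted p = 0.897 in edgeR). Log2 CPM of Col1a1 and Col1a2 correlated over the 8 mice (Pearson's r 0.93, exact permutation p = 0.000868, adjusted p = 0.0308, and Spearman's rho 0.83, exact permutation p = 0.0154, adjusted p = 0.163). The same held for Col1a1 and Col3a1 (Pearson's r 0.95, exact permutation p = 0.000149, adjusted p = 0.0154, and Spearman's rho 0.93, exact permutation p = 0.00223, adjusted p = 0.0740). Without the 2 mice farthest from the median of Col1a1, r was 0.79 and 0.90. All 496 pairs of tested collagens were examined, and each adjusted p of a correlation is over 497 relations, these pairs and 1 with Sbp. The pairs named were chosen after the data were seen. Permutations ran over all 8 mice without regard to group, so a shift between groups or between libraries can enter r and p.

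Such relations were not confined to partner chains, and not shared by all collagens. Over the 66 pairs of the 12 collagens with the highest mean FPKM, Pearson's r ran from -0.09 for Col6a3 with Col18a1 to 0.98 for Col1a2 with Col15a1, with a median of 0.69. An adjusted exact permutation p of at most 0.05 was reached by 13 of these pairs, and r exceeded that of Col1a1 with Col1a2 in 7. The relation of Col1a2 with Col15a1, a collagen of another class, is an example (Pearson's r 0.98, exact permutation p = 4.96e-05, adjusted p = 0.0154, and Spearman's rho 0.98, exact permutation p = 0.000397, adjusted p = 0.0394), with r 0.97 without the 2 mice farthest from the median of Col1a2.

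The log2 ratio of Col1a1 to Col1a2, whose chains assemble in the same trimer, was -0.53, -0.26, 0.28 and 0.34 in control 1, 3, 65 and 69 and -0.36, 0.17, 0.54 and 0.73 in etanercept 17, 19, 50 and 52. Etanercept 50 and 52 had the highest ratios and control 1 and etanercept 17 the lowest, so the groups overlapped, with means of -0.04 ± 0.42 and 0.27 ± 0.48 (SD, n = 4). The position of this ratio depends on the exon length used, since the union of annotated exons of Col1a2 is 12426 nt and its longest transcript 5348 nt, and with the longest transcripts every value shifts by -1.07. Comparisons between mice are not affected. For Col3a1 to Col1a1 the mean log2 ratio was -0.73 ± 0.46 for control and -0.81 ± 0.28 for treated mice (SD, n = 4).

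Type V collagen initiates fibrils and limits their diameter. Col5a1 was measured at 1.73, 2.27, 1.81 and 1.44 FPKM in control 1, 3, 65 and 69 and 0.693, 1.68, 2.46 and 2.82 FPKM in etanercept 17, 19, 50 and 52. Etanercept 17 was the lowest of all mice and etanercept 52 the highest, and the fold change was close to 0 (log2 fold change 0.08, SE 0.39, adjusted p = 0.995 in edgeR), falling below 0 with library size alone and after removal of the length trend. Its partner Col5a2 had 0.675, 1.08, 0.110 and 0.489 FPKM in control 1, 3, 65 and 69 and 0.959, 1.35, 1.05 and 1.29 FPKM in etanercept 17, 19, 50 and 52. Control 65 stood far below the other mice and control 3 lay among the treated mice (log2 fold change 0.98, SE 0.55, adjusted p = 0.797 in edgeR). The log2 ratio of Col5a1 to Col5a2 was therefore 4.04 in control 65 and between -0.47 and 1.56 in the other 7 mice, with group means of 2.01 ± 1.37 and 0.55 ± 0.79 (SD, n = 4). The difference of these means, -1.46, ran from -1.77 to -0.78 without single mice and was smallest without control 65. The scarce chains Col5a3, at 0 to 0.553 FPKM, and Col27a1, at 0.226 to 1.28 FPKM, had log2 fold changes of 0.18 (SE 1.13, edgeR adjusted p = 0.997) and -0.62 (SE 0.53, edgeR adjusted p = 0.890). The value of Col27a1 ran from -1.04 to -0.13 without single mice.

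Type IV collagen has 6 chains, and Col4a1 and Col4a2, which form the trimer found in nearly all basement membranes, were the most abundant. Col4a2 (chr8:11312805-11449287, plus strand) was measured at 4.55, 12.7, 10.2 and 10.3 FPKM in control 1, 3, 65 and 69 and 16.1, 10.1, 14.4 and 19.98 FPKM in etanercept 17, 19, 50 and 52. Control 1 was lowest, etanercept 17, 50 and 52 were above every control mouse, and etanercept 19 was just below the other 3 control mice. Of the collagens that missed the limit of 0.05 before adjustment, it was the nearest (log2 fold change 0.68, SE 0.31, adjusted p = 0.743 in edgeR). Col4a1 (chr8:11198423-11312826, minus strand) had 4.65, 12.02, 8.50 and 11.2 FPKM in control 1, 3, 65 and 69 and 11.1, 8.54, 16.9 and 22.4 FPKM in etanercept 17, 19, 50 and 52. Etanercept 50 and 52 were above every control mouse, etanercept 17 and 19 were not (log2 fold change 0.70, SE 0.36, adjusted p = 0.776 in edgeR).

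Both genes are transcribed in opposite directions from neighbouring starts, and their annotated first exons overlap by 22 nt. That is 0.295% of the exon length of Col4a1, so few reads can fall on both genes, although the counting does not use strand. Log2 CPM of Col4a1 and Col4a2 correlated over the 8 mice (Pearson's r 0.92, exact permutation p = 0.00134, adjusted p = 0.0392, and Spearman's rho 0.83, exact permutation p = 0.0154, adjusted p = 0.163). Here r was 0.66 without the 2 mice farthest from the median of Col4a1. Their log2 ratio averaged -0.05 ± 0.17 for control and -0.09 ± 0.36 for treated mice (SD, n = 4), so that the chains were nearly equal in level.

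Col4a5 and Col4a6 lie on the X chromosome, again side by side in opposite directions, and their chains assemble together in the basement membrane of smooth muscle, among other tissues. Col4a6 (chrX:141165403-141474076, minus strand) was measured at 0.884, 1.80, 1.97 and 1.86 FPKM in control 1, 3, 65 and 69 and 3.40, 2.68, 1.85 and 5.05 FPKM in etanercept 17, 19, 50 and 52. Control 1 was lowest, the other control mice lay close together, and etanercept 17, 19 and 52 were above all of them, while etanercept 50 lay among them. The means were 1.63 ± 0.501 FPKM for control and 3.25 ± 1.36 FPKM for treated mice (SD, n = 4), with the smallest p of all collagens before adjustment (log2 fold change 1.0, SE 0.36, adjusted p = 0.739 in edgeR). Its p before adjustment stayed at or below 0.05 in 7 of the 8 fits that leave out a mouse, all but the fit without etanercept 52. It also did so after removal of the length trend, but was above 0.05 without control 1 and control 69 together.

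Col4a5 (chrX:141475385-141689234, plus strand) had 1.22, 2.02, 1.96 and 2.35 FPKM in control 1, 3, 65 and 69 and 3.63, 1.78, 2.34 and 2.57 FPKM in etanercept 17, 19, 50 and 52. Etanercept 17 and 52 were above every control mouse, and etanercept 19 and 50 were below control 69 (log2 fold change 0.45, SE 0.30, adjusted p = 0.833 in edgeR). Over the 8 mice the log2 CPM of Col4a5 and Col4a6 gave a weaker relation, which did not pass after adjustment (Pearson's r 0.74, exact permutation p = 0.0424, adjusted p = 0.229, and Spearman's rho 0.60, exact permutation p = 0.132, adjusted p = 0.444). The value of r rests on the 2 mice farthest from the median of Col4a5, without which r was 0.38. The remaining pair, Col4a3 and Col4a4, best known from the kidney filter, was scarce, at 0 to 0.410 FPKM and 0.313 to 0.940 FPKM, and control 1 had 0 counts of Col4a3. Their log2 fold changes were 0.48 (SE 1.19, edgeR adjusted p = 0.986) and 0.48 (SE 0.44, edgeR adjusted p = 0.901). Of the exon bases of Col4a3, 5.65% overlap a gene on the opposite strand.

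Among the other collagens, type VI forms beaded filaments from the chains of Col6a1, Col6a2 and Col6a3, and these were the most abundant. Col6a1 (chr10:76708792-76726168, minus strand) was measured at 6.65, 19.4, 8.43 and 12.04 FPKM in control 1, 3, 65 and 69 and 15.2, 10.1, 17.3 and 25.2 FPKM in etanercept 17, 19, 50 and 52. Control 1 was lowest and etanercept 52 highest, with the other mice of both groups mixed in between (log2 fold change 0.54, SE 0.37, adjusted p = 0.838 in edgeR). Col6a2 (chr10:76595762-76623630, minus strand) had 2.59, 8.64, 4.26 and 5.52 FPKM in control 1, 3, 65 and 69 and 5.17, 4.75, 6.04 and 9.50 FPKM in etanercept 17, 19, 50 and 52. The order of the mice was nearly the same, and control 3 came next to etanercept 52 (log2 fold change 0.28, SE 0.36, adjusted p = 0.943 in edgeR). Leaving out single mice moved the fold change of Col6a2 between 0.0011 and 0.62. Col6a1 and Col6a2 correlated over the 8 mice (Pearson's r 0.94, exact permutation p = 0.000248, adjusted p = 0.0154, and Spearman's rho 0.98, exact permutation p = 0.000397, adjusted p = 0.0394). This pair had r 0.86 without the 2 mice farthest from the median of Col6a1.

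Col6a3 (chr1:90765923-90843971, minus strand) departed from its partners. Its level was 1.62, 29.3, 11.3 and 57.96 FPKM in control 1, 3, 65 and 69 and 2.82, 67.1, 58.1 and 10.5 FPKM in etanercept 17, 19, 50 and 52. Control 69, etanercept 19 and etanercept 50 were high, control 1 and etanercept 17 were low, and the highest level was 41.5 times the lowest, against 3.79 times for Col6a1 and 3.67 times for Col6a2. High and low mice occurred in both groups, and the fold change was smaller than its error (log2 fold change 0.47, SE 1.06, adjusted p = 0.982 in edgeR). Col6a3 alone made up between 2.93% of all collagen FPKM, in etanercept 17, and 42.03%, in etanercept 19. Without it, the sum of the other collagens was 27.6, 65.99, 30.8 and 41.1 FPKM in control 1, 3, 65 and 69 and 39.1, 38.5, 45.95 and 73.4 FPKM in etanercept 17, 19, 50 and 52. Control 3 and etanercept 52 were then the highest.

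Across the 8 mice, log2 CPM of Col6a3 showed no clear relation with that of Col6a1 (Pearson's r 0.28, exact permutation p = 0.493, adjusted p = 0.716, and Spearman's rho 0.14, exact permutation p = 0.752, adjusted p = 0.894). Without the 2 mice farthest from the median of Col6a1, r was -0.01. With its other partner, Col6a2, the relation was also weak (Pearson's r 0.45, exact permutation p = 0.266, adjusted p = 0.554, and Spearman's rho 0.24, exact permutation p = 0.582, adjusted p = 0.783), and r was 0.22 without the 2 mice farthest from the median of Col6a2. Over all 31 other tested collagens, r with Col6a3 ran from -0.82 for Col27a1 to 0.86 for Col7a1, with Col5a3 at 0.83, Col20a1 at 0.81 and Col3a1 at 0.72, and 0 of them passed an adjusted exact permutation p of 0.05.

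Col6a3 was also set beside the ventral-lobe gene Sbp, which was chosen because its values resembled those of Col6a3. Sbp was measured at 1547, 63887, 15637 and 225760 CPM in control 1, 3, 65 and 69 and 1618, 174099, 180220 and 55954 CPM in etanercept 17, 19, 50 and 52. The mice with high Sbp were those with high Col6a3 in both groups (Pearson's r 0.97, exact permutation p = 0.000546, adjusted p = 0.0284, and Spearman's rho 0.88, exact permutation p = 0.00724, adjusted p = 0.106). The value of r was 0.89 without the 2 mice farthest from the median of Sbp. The p does not account for the choice of Sbp, and 40 of the 15471 other tested genes had a higher r with Col6a3. Whether the share of the ventral lobe in a sample accounts for the level of Col6a3 was not tested.

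**Figure D3:**
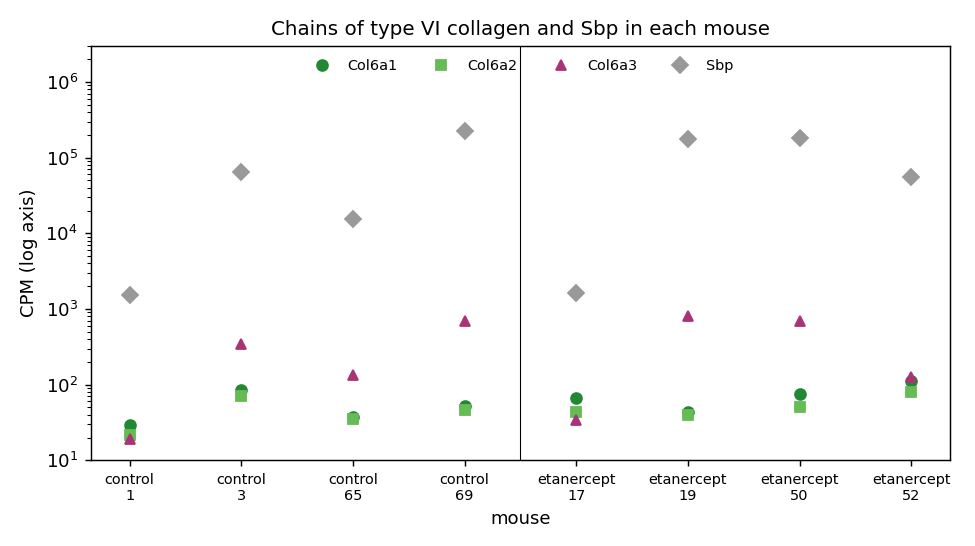
CPM on a log axis of the type VI chains Col6a1, Col6a2 and Col6a3 and of Sbp in each of the 8 mice, control to the left of the line and etanercept to the right. Col6a1 and Col6a2 stay close together in every mouse, while Col6a3 is high where Sbp is high, in control 69, etanercept 19 and etanercept 50, and low in control 1 and etanercept 17.

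The alternative type VI chain Col6a4 (chr9:105989454-106096783, minus strand) was measured at 0.729, 0.641, 0.818 and 0.604 FPKM in control 1, 3, 65 and 69 and 2.43, 0.941, 0.484 and 2.19 FPKM in etanercept 17, 19, 50 and 52. The control mice were close together, etanercept 17 and 52 were high, and etanercept 50 was the lowest of all mice. It was the other collagen that was higher before adjustment (log2 fold change 1.11, SE 0.48, adjusted p = 0.743 in edgeR). This held in 2 of the 8 fits that leave out a mouse, those without etanercept 19 and without etanercept 50. It did not hold after removal of the length trend, with library size alone or with the animal number as a term. Nor did it hold without control 1 and control 69 together. Col6a5 ranged from 0.0823 to 2.98 FPKM and is named after its values were seen; its highest level was in control 3.

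Multiplexins are the proteoglycan collagens of basement membrane zones, whose ends give rise to restin and endostatin. Col15a1 (chr4:47208161-47313167, plus strand) had 1.06, 4.71, 1.65 and 3.20 FPKM in control 1, 3, 65 and 69 and 2.56, 4.07, 5.06 and 10.6 FPKM in etanercept 17, 19, 50 and 52. Etanercept 52 was far above the other mice and control 1 lowest, with control 3 above etanercept 17 and 19 (log2 fold change 1.07, SE 0.53, adjusted p = 0.769 in edgeR). In DESeq2 it was among the 3 that were higher before adjustment. Its edgeR fold change ran from 0.54 to 1.49 without single mice. Col18a1, at 2.63 to 6.44 FPKM, had means of 4.59 ± 0.972 FPKM for control and 4.14 ± 1.66 FPKM for treated mice (SD, n = 4). It had a log2 fold change of -0.15 (SE 0.29, edgeR adjusted p = 0.973) that was above 0 after removal of the GC trend.

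Fibril-associated collagens bind to the surface of fibrils. Col16a1 was measured at 2.34, 4.01, 2.67 and 2.83 FPKM in control 1, 3, 65 and 69 and 0.854, 2.46, 2.65 and 4.53 FPKM in etanercept 17, 19, 50 and 52. Etanercept 17 stood below all other mice, and the groups overlapped otherwise (log2 fold change -0.18, SE 0.43, adjusted p = 0.984 in edgeR). Col12a1 had 0.363, 3.52, 1.45 and 2.70 FPKM in control 1, 3, 65 and 69 and 2.22, 2.37, 2.87 and 3.48 FPKM in etanercept 17, 19, 50 and 52. Control 1 was far below the other 7 mice, which overlapped between groups (log2 fold change 0.45, SE 0.53, adjusted p = 0.936 in edgeR). The fold change of Col12a1 ran from 0.07 to 0.86 without single mice. Of the 5 tested members of this class, 2 had a log2 fold change above 0.

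Transmembrane collagens span the cell membrane, and Col17a1, a component of hemidesmosomes in basal epithelial cells, had the most negative fold change of the tested collagens. Col17a1 (chr19:47646344-47692094, minus strand) was measured at 3.57, 3.21, 2.64 and 0.530 FPKM in control 1, 3, 65 and 69 and 1.65, 0.845, 0.647 and 0.196 FPKM in etanercept 17, 19, 50 and 52. Control 1, 3 and 65 were above every etanercept-treated mouse, and control 69 was below etanercept 17, 19 and 50. The means were 2.49 ± 1.36 FPKM for control and 0.834 ± 0.607 FPKM for treated mice (SD, n = 4), with log2 fold change -1.57, SE 0.68, adjusted p = 0.743 in edgeR. Its p before adjustment was at or below 0.05 in 2 of the 8 fits that leave out a mouse, those without control 69 and without etanercept 17, and not after removal of the GC trend. Its log2 CPM and that of Col1a1 had a negative correlation over the 8 mice that did not pass after adjustment (Pearson's r -0.83, exact permutation p = 0.0103, adjusted p = 0.119, and Spearman's rho -0.90, exact permutation p = 0.00456, adjusted p = 0.0756). Without the 2 mice farthest from the median of Col1a1, r was -0.60. Col23a1, at 1.25 to 3.44 FPKM, had a log2 fold change of 0.34 (SE 0.30, edgeR adjusted p = 0.892).

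The 12 collagens that failed the filter were Col2a1, Col11a1, Col11a2 and Col24a1 of the fibrillar class and Col6a6, Col9a1, Col9a3, Col10a1, Col19a1, Col22a1, Col25a1 and Col26a1 of the others. Col9a1 and Col19a1 had 0 counts in every mouse, which allows a share of at most 2.18e-05% of the counts in control 65, the shallowest library. The others reached at most 64 counts in any mouse, for Col11a1 in control 1. Several of these genes, among them Col2a1, Col9a1, Col10a1 and Col11a1, are known as collagens of cartilage. Of the 6 cartilage markers, Acan and Matn1 had 0 counts in every mouse, while Sox9, at 411 to 1807 counts, and Chad, at 35 to 183 counts, were detected in all 8. Comp reached 26 counts, and Hapln1 had 35 counts in control 1, the mouse with the most of Col11a1, and 0 elsewhere.

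Genes that make, process, bind or break down collagen were followed in 6 lists with 84 members, of which 76 were tested. In edgeR, 0 of them were called at the adjusted threshold, and DESeq2 also called 0; with p at or below 0.05 before adjustment, 3 were higher and 3 were lower with etanercept. That is 3.95% each way, near the 2.99% and 3.63% of all tested genes. Counts without single mice ran from 1 to 6 higher, at 1 without control 65 or etanercept 52, 5 without control 3 and 6 without etanercept 19, and from 2 to 4 lower. Of all genes in these 4 fits, in that order, 1.73%, 1.64%, 2.86% and 2.53% were higher. Between 2.49% and 5.98% of all genes were lower without single mice. The pathway genes had a median log2 fold change of 0.10. Their groups did not overlap for 1 gene that was higher and 1 that was lower, 1.32% each way against 2.41% and 2.53% of all tested genes.

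In the list of chain modification and folding, 1 of 19 tested genes was higher and 0 were lower, beside 2.99% and 3.63% of all tested genes. The median log2 fold change of the list was 0.10. P3h1, the prolyl 3-hydroxylase of the endoplasmic reticulum, was measured at 2.37, 2.77, 2.53 and 2.27 FPKM in control 1, 3, 65 and 69 and 4.57, 2.96, 4.38 and 4.97 FPKM in etanercept 17, 19, 50 and 52. Every etanercept-treated mouse was above every control mouse (log2 fold change 0.76, SE 0.24, adjusted p = 0.739 in edgeR). Creb3l1, a transcription factor that activates collagen genes, had 0.57 (SE 0.40, edgeR adjusted p = 0.846) as log2 fold change. The lysyl hydroxylase Plod1 had 0.46 (SE 0.30, edgeR adjusted p = 0.833) and the prolyl isomerase Fkbp14 had 0.46 (SE 0.32, edgeR adjusted p = 0.846). The most abundant gene was P4hb, the subunit shared by the prolyl 4-hydroxylases, at 481 to 1043 FPKM, with a log2 fold change of 0.01 (SE 0.28, edgeR adjusted p = 0.999) that was below 0 under 3 other scalings and in DESeq2.

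Of the enzymes of propeptide removal and crosslinking, 0 of 11 tested genes passed the unadjusted threshold (median log2 fold change 0.19). The smallest p was that of Bmp1, the C-propeptide protease, with 0.43 (SE 0.32, edgeR adjusted p = 0.859). The most abundant gene was its enhancer Pcolce, at 8.15 to 17.3 FPKM with 0.03 (SE 0.26, edgeR adjusted p = 0.997), which was below 0 with library size alone. The lysyl oxidase Loxl2 had 0.41 (SE 0.45, edgeR adjusted p = 0.930), the N-propeptide protease Adamts2 0.24 (SE 0.40, edgeR adjusted p = 0.965), and Pcolce2, a further enhancer at 0 to 1.04 FPKM, -1.58 (SE 1.41, edgeR adjusted p = 0.897).

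Among the proteoglycans and glycoproteins of fibrils, 1 of 13 tested genes was higher and 1 was lower (median 0.05), beside 2.99% and 3.63% overall tested. Sparc, a collagen-binding glycoprotein that is also a chaperone of type IV collagen, was measured at 44.7, 77.4, 52.1 and 68.5 FPKM in control 1, 3, 65 and 69 and 82.3, 66.9, 115 and 156 FPKM in etanercept 17, 19, 50 and 52. Etanercept 17, 50 and 52 were above every control mouse and etanercept 19 lay just below control 69 (log2 fold change 0.79, SE 0.29, adjusted p = 0.739 in edgeR). Tnxb, which encodes tenascin-X and stabilises fibril networks, had 1.15, 2.64, 1.86 and 1.71 FPKM in control 1, 3, 65 and 69 and 0.844, 1.08, 0.739 and 0.993 FPKM in etanercept 17, 19, 50 and 52. Every etanercept-treated mouse was below every control mouse (log2 fold change -1.01, SE 0.28, adjusted p = 0.739 in edgeR). The small leucine-rich proteoglycan Fmod and the fibril organiser Dpt had log2 fold changes of -0.60 (SE 0.40, edgeR adjusted p = 0.840) and -0.41 (SE 0.29, edgeR adjusted p = 0.849).

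Of the receptor genes, 1 of 8 tested was higher and 0 were lower (median 0.09), beside 2.99% and 3.63% of all tested genes. Itga1, the α1 integrin chain that binds type IV and other collagens and is abundant on smooth muscle, was measured at 1.84, 4.22, 3.11 and 3.33 FPKM in control 1, 3, 65 and 69 and 5.74, 3.79, 4.93 and 6.07 FPKM in etanercept 17, 19, 50 and 52. Etanercept 17, 50 and 52 were above every control mouse, while etanercept 19 was below control 3 (log2 fold change 0.72, SE 0.26, adjusted p = 0.739 in edgeR). Its p before adjustment was above 0.05 after removal of the length trend. Its partner Itgb1, the most abundant receptor gene, had 0.46 (SE 0.24, edgeR adjusted p = 0.782), the receptor tyrosine kinase Ddr2 0.32 (SE 0.39, edgeR adjusted p = 0.939) and the chondrocyte integrin Itga10 -0.37 (SE 0.92, edgeR adjusted p = 0.985).

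Of the 15 basement membrane partners of type IV collagen, 0 passed the unadjusted threshold, with a median log2 fold change of 0.11. After removal of the length trend, Lama5 passed it, with a log2 fold change of -0.47. The laminin chains Lama5 and Lamb1 had log2 fold changes of -0.32 (SE 0.19, edgeR adjusted p = 0.802) and 0.42 (SE 0.28, edgeR adjusted p = 0.8292), and the most abundant, Lamb2, had -0.17 (SE 0.17, edgeR adjusted p = 0.919). Pxdn, the peroxidase that crosslinks type IV collagen, had 0.52 (SE 0.32, edgeR adjusted p = 0.822) and the proteoglycan Agrn -0.21 (SE 0.21, edgeR adjusted p = 0.910).

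Of the genes of collagen degradation, 0 of 10 tested were higher and 2 were lower (median 0.13), beside 2.99% and 3.63% of all tested genes. Mmp14, a membrane-bound collagenase, was measured at 27.2, 20.8, 19.02 and 9.64 FPKM in control 1, 3, 65 and 69 and 13.5, 7.75, 9.56 and 10.3 FPKM in etanercept 17, 19, 50 and 52. Control 1, 3 and 65 were above every etanercept-treated mouse and control 69 lay among them (log2 fold change -0.90, SE 0.30, adjusted p = 0.739 in edgeR). Timp1, an inhibitor of these proteases, had 15.9, 20.2, 9.60 and 7.30 FPKM in control 1, 3, 65 and 69 and 3.80, 4.16, 9.16 and 7.10 FPKM in etanercept 17, 19, 50 and 52. Control 1, 3 and 65 were again above every etanercept-treated mouse, and control 69 lay below etanercept 50 (log2 fold change -1.13, SE 0.44, adjusted p = 0.739 in edgeR), and its p before adjustment was above 0.05 after removal of the length trend. The lysosomal collagenase Ctsk had 0.78 (SE 0.54, edgeR adjusted p = 0.846), the neutrophil collagenase Mmp8, at 0 to 0.495 FPKM, -1.75 (SE 1.57, edgeR adjusted p = 0.899), and the most abundant gene Timp2 -0.17 (SE 0.20, edgeR adjusted p = 0.931). Leaving out single mice moved the value of Mmp8 between -6.80 and -1.33.

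Markers of several cell types also differed between the groups on average. Of the 9 smooth muscle markers, all tested and none at 0, 5 were higher before adjustment, against 2.99% of all tested genes. Their sum was 3547, 7482, 7429 and 6507 CPM in control 1, 3, 65 and 69 and 12118, 6906, 12130.1 and 14579.7 CPM in etanercept 17, 19, 50 and 52. Etanercept 17, 50 and 52 were above every control mouse, as for Col4a2, and etanercept 19 was below control 3 and control 65. The most abundant, Acta2, had a log2 fold change of 0.77 (SE 0.32, edgeR adjusted p = 0.739). The part of smooth muscle in the levels of type IV collagen, Itga1 and Sparc was not tested.

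Adipocyte markers were lower, with 6 of 7 tested genes at p of 0.05 or less before adjustment, against 3.63% of all tested genes for this and the next lists. Their sum over 8 genes was 381, 755, 99.7 and 157 CPM in control 1, 3, 65 and 69 and 56.5, 62.6, 52.1 and 56.96 CPM in etanercept 17, 19, 50 and 52. Every control mouse was above every etanercept-treated mouse. Adipoq, Lep, Retn and Cidec had 0 counts in some mice, and the most abundant gene, Cfd, had a log2 fold change of -4.48 (SE 1.12, edgeR adjusted p = 0.739). For macrophages, 3 of 6 genes were lower and 0 higher, and the sum was 304, 757, 392 and 244 CPM in control 1, 3, 65 and 69 and 189, 267, 212 and 234 CPM in etanercept 17, 19, 50 and 52. Control 1, 3 and 65 were above every etanercept-treated mouse, as for Mmp14 and Timp1, and the most abundant gene, C1qa, had a log2 fold change of -1.18 (SE 0.37, edgeR adjusted p = 0.739). Basal epithelial markers, with 2 of 6 lower, summed to 495, 383, 356 and 223 CPM in control 1, 3, 65 and 69 and 303, 221, 202 and 312 CPM in etanercept 17, 19, 50 and 52. Control 1, 3 and 65 were the highest, as for Col17a1, and the most abundant gene, Krt15, had -0.60 (SE 0.23, edgeR adjusted p = 0.739). After removal of the length trend, Krt15 and the macrophage genes C1qb and Cd68 were above 0.05 before adjustment. The part of these cells in the levels of Timp1, Mmp14 and Col17a1 was not tested.

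Fibroblast markers, the genes of the main producers of fibrillar collagen, showed 0 of 10 higher and 1 lower. Their sum was 940.0, 1860.2, 1005 and 921 CPM in control 1, 3, 65 and 69 and 1127, 994, 934 and 1371 CPM in etanercept 17, 19, 50 and 52. Control 3 was highest and etanercept 52 next, and the groups overlapped. Their most abundant gene, Gsn, had a log2 fold change of -0.12 (SE 0.27, edgeR adjusted p = 0.982). Of the pericyte markers, 1 of 6 was lower (median log2 fold change -0.15), and the most abundant, Rgs5, had -0.44 (SE 0.41, edgeR adjusted p = 0.904). No endothelial marker of 8 passed (median -0.55), with Pecam1 at -0.53 (SE 0.27, edgeR adjusted p = 0.782). Leukocyte markers had 1 of 8 lower (median -0.52), with Cd52 at -0.02 (SE 0.34, edgeR adjusted p = 0.999).

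Luminal markers had 0 of 8 at that limit (median -0.09), with Pbsn at -0.11 (SE 0.68, edgeR adjusted p = 0.997). In skeletal muscle, 3 of 7 tested genes were lower (median -3.34), while the most abundant gene, Acta1, had 1.10 (SE 0.66, edgeR adjusted p = 0.821). The lower genes, Tnnt3, Tnni2 and Actn3, rest on control 3, which had 3663 counts of Actn3 against 36 to 162 in the other mice. Without it, their log2 fold changes were 1.65, 0.79 and 1.01. For cartilage, 0 of 2 tested genes passed, and Sox9 had -0.50 (SE 0.38, edgeR adjusted p = 0.862). Seminal vesicle genes had 0 of 3 tested, with Svs2 at 4.88 (SE 3.57, edgeR adjusted p = 0.854), and mesothelial genes 0 of 3 tested, with Wt1 at 0.21 (SE 0.50, edgeR adjusted p = 0.984). These last 4 lists had members at 0 counts in some or all mice.

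Promoter sequences of type VI and type IV chains are shown from the RefSeq promoter table of GRCm38.p6, which matched 35 of the 44 collagen genes with 38 starts. It had no entry for Col1a1, Col2a1, Col4a3, Col5a2, Col9a3, Col12a1, Col14a1, Col22a1 and Col26a1. The CCAAT box, the TATA box letters TATAAA and the GC box letters GGGCGG were searched on both strands in the 250 bases before each start. CCAAT was in 34.2% of the collagen windows against 33.8% of all 32851 windows in the table, TATAAA in 13.2% against 12.4%, and GGGCGG in 57.9% against 32.7%. A match is a description of the letters and not of a bound site. The parts printed lie outside annotated exons and are read 5′ to 3′ on the strand of the gene, with matches in capitals; CCGCCC is GGGCGG on the opposite strand, and no matches overlap in the parts shown. The type VI chains are given because Col6a3 parted from its partners, and the type IV pair because the starts of Col4a5 and Col4a6 lie 1342 bases apart on opposite strands.
Col6a1, chr10:76726169-76726294, minus strand: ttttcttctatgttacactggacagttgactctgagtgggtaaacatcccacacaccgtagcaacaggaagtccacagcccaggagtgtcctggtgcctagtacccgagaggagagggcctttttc
Col6a2, chr10:76623631-76623880, minus strand: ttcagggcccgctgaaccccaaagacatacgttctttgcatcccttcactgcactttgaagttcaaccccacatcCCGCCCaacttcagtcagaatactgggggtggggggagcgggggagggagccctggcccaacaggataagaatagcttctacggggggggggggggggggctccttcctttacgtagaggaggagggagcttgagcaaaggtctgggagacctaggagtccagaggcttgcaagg
Col6a3, chr1:90843972-90844221, minus strand: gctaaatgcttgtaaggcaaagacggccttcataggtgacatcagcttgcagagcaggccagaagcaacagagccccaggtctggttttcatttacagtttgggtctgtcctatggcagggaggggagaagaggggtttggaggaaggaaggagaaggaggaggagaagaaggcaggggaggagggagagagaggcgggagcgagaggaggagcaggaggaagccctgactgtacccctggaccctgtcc
Col4a5, chrX:141475169-141475384, plus strand: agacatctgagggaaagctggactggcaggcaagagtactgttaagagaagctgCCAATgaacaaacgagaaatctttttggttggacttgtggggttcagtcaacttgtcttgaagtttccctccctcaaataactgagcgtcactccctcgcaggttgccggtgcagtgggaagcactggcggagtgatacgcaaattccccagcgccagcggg
Col4a6, chrX:141474077-141474326, minus strand: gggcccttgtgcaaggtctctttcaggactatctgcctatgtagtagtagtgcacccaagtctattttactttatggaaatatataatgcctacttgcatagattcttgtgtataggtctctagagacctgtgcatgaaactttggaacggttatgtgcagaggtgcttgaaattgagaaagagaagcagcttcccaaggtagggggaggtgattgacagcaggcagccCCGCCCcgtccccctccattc
The parts of Col6a1 and Col6a3 held 0 matches, that of Col6a2 held 1 GGGCGG, that of Col4a5 1 CCAAT and that of Col4a6 1 GGGCGG. A further start of Col6a2, whose window at chr10:76623405-76623654 held 3 GGGCGG, of which 2 overlap, is not shown because 226 of its 250 bases lie in annotated exons. The window of Col4a5 held 1 more GGGCGG in the exon bases left out.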

How the data were processed

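Poly(A)-selected RNA of 8 prostate samples was read from both ends over 150 nt. The authors aligned reads to mm10 with STAR 2.6.1d and counted them per gene with featureCounts 1.5.0-p3, per the submitters' processing notes, and deposited whole-number counts per gene and mouse without normalization. The annotation used for counting was not given in the sources used here; 54495 of 54532 identifiers were found in GENCODE M21. The library kit does not keep strand, so reads in overlapping exons of different genes cannot be assigned by strand.

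Counts were scaled with TMM and tested with the quasi-likelihood test of edgeR 4.0.16 (R 4.3.3), after filterByExpr with a minimum count of 10, with Benjamini-Hochberg adjustment across all 15472 genes tested. FPKM used effective library sizes and the union of exons. Positive log2 fold changes are higher with etanercept. The fitting code was tested on simulated data.

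Named genes were every tested fibrillar and type IV collagen, the 8 most abundant other collagens, those at p of at most 0.05, per pathway list at most 4 genes with the smallest p and the most abundant, and the most abundant gene of each marker list reported. Members and lists were chosen with earlier results of these data known. Correlations used log2(CPM + 1) and exact two-sided permutation tests, adjusted over all pairs of tested collagens and Sbp with Col6a3. Alternatives were DESeq2 1.42.0, other scaling factors, filters, a robust fit, removal of length or GC trends (lowess, span 0.3), protein-coding genes only, animal number below 20 or above 49 as a term, and leaving out each mouse. All 8 columns were used.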

Additional observations from a re-analysis of the deposited data

Results flagged for a closer look

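In a group of 4 mice, a value is listed here where the gap from the highest or lowest mouse to the next, divided by the whole range of the group, exceeded Dixon's limit at the 5% level. Of 122 groups of values examined, 7 met this, and chance alone gives about 1 in 20. Col4a6 in control 1 was 0.884 FPKM, below the other control mice at 1.80 to 1.97 FPKM. Control 3 was above the other control mice for Pcolce, at 17.3 FPKM against 8.15 to 9.55, for Pxdn, at 1.99 FPKM against 1.20 to 1.22, and for Mmp8, at 0.495 FPKM against 0.239 to 0.261. Mmp8 was also 0.371 FPKM in etanercept 52 and 0 in the other treated mice. Control 65 was high for Lama5, at 7.49 FPKM against 5.04 to 5.29, and for the log2 ratio of Col5a1 to Col5a2, at 4.04 against 1.07 to 1.56, where Col5a2 had 15 counts.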

How the results depend on the processing

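No collagen or pathway gene was called at the adjusted threshold in edgeR under any alternative, nor by DESeq2, which called 6 genes higher and 15 lower over the whole table. With p at or below 0.05 before adjustment, library size alone gave 285 genes higher and 837 lower in place of 463 and 561, and removal of the GC trend gave 279 higher; without single mice, 263 to 870 were higher and 398 to 956 lower. Collagens that were higher at that threshold numbered 1 of 32 with library size alone, beside 1.84% of all tested genes. They numbered 1 of 32 with the length trend removed, beside 2.17%, and with the animal number as a term, beside 2.71%. With a filter of 1 count they numbered 4 of 42, beside 2.28%. Without control 1 and control 69 together, a fit added after the data were seen, they numbered 0 of 33, beside 4.06%. Without single mice they numbered 0 to 7, beside 1.64 to 5.45%. Collagens that were lower numbered 0 with the GC trend removed, beside 3.27%, and 0 to 1 without single mice, beside 2.49 to 5.98%. Pathway genes that were higher numbered 1 to 6 without single mice, beside 1.64 to 5.45% of all tested genes. Without control 1 and control 69, 0 pathway genes were higher and 5 were lower, beside 4.06% and 4.54%. The cause of these changes was not tested.

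The class medians kept their sign in the 14 alternatives run for them and without each mouse, and so did the ratios of summed levels in the 3 or 4 run for those. Of the fold changes of the 51 named genes under the alternatives, 35 changed sign and 1031 did not. Col5a1 became -0.00676 with library size alone, -0.0499 with the length trend removed, -0.0261 with the animal number and -0.0955 without control 1 and 69, and P4hb became -0.00248 with RLE factors, -0.00184 with upper-quartile factors, -0.0405 with library size alone and -0.00239 in DESeq2. Pcolce was -0.0588 with library size alone, and Pcolce, Col6a2 and Ddr2 were -0.22, -0.0227 and -0.16 without control 1 and 69. Col18a1 was 0.0116 with the GC trend removed. Ranges without single mice that crossed 0 were -0.18 to 0.36 for Col5a1, -0.23 to 0.76 for Col5a3, -0.0509 to 1.43 for Col4a3, -0.0719 to 1.30 for Col6a3, -0.58 to 0.12 for Col16a1, -0.46 to 0.0147 for Col18a1, -0.16 to 0.23 for P4hb, -0.11 to 0.34 for Pcolce, -0.19 to 0.47 for Adamts2 and -0.98 to 0.0743 for Itga10. Ranges that stayed above 0 included 0.33 to 0.96 for Col1a2, 0.30 to 0.98 for Col3a1 and 0.27 to 0.90 for Col6a1. The sum without Col6a3, the correlations without 2 mice and their adjustment over all pairs were also added after the data were seen. No paired analysis was possible because the groups share no animal number. The coefficient of biological variation in edgeR was 0.547, and which size of difference could be detected is not given here.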
